A study of Mus musculus with 8 samples.

Results

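Islets release hormone by fusing dense-core granules with the plasma membrane, and 37 genes of this machinery were followed here through islets with and without Sirt6, a sirtuin that removes acyl groups from chromatin. The genes were taken by symbol from a count table of 22609 symbols, and all 37 were found. They code for the granins and membrane proteins of the granule, the SNARE proteins that drive fusion, the synaptotagmins, complexins and Doc2 that tie fusion to calcium, the Rab GTPases and their effectors that bring granules to the membrane, and the active zone and priming factors that make docked granules ready. In 36 genes the counts were high enough for testing. Rims1, which codes for an active zone scaffold, had 0 to 8 reads per library and was left out of the tests.

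The poly(A) RNA came from islets of male mice, 8 to 9 weeks old and of mixed background, that had recovered for 4 h in culture, with 4 groups and 2 libraries in each. BKO mice were MIP1-CreERT Sirt6 f/f, in which tamoxifen switches on a Cre recombinase driven by an insulin promoter in adult beta cells, and their islets were taken 2 weeks later. The BKO controls were MIP1-CreERT Sirt6 f/+ in replicate 1 and MIP1-CreERT Sirt6 +/+ in replicate 2. EKO mice were Ngn3-Cre Sirt6 f/f, in which Cre is expressed by pancreatic endocrine progenitors, and their controls were Ngn3-Cre Sirt6 +/+. Every group carried a Cre transgene, and the labels do not say whether the BKO controls received tamoxifen. If they did not, tamoxifen and deletion cannot be told apart in BKO against its controls. In the BKO model the Cre is not directed at islet cells other than beta cells. The BKO controls differ in genotype and so come from different animals. For the other groups nothing says that replicates are separate animals, so p-values reflect no more than how these samples spread, which may be technical variation.

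As background, a dense-core granule is packed in the Golgi with hormone and granins, which are acidic proteins that condense with it and help to form the granule. Rab3 and Rab27 proteins on the granule recruit effectors that tether and dock it, Munc13 and CAPS proteins prime it, and the granule SNARE then zips up with its partners on the plasma membrane. Calcium entering through voltage-gated channels acts on synaptotagmins to trigger fusion. Beta cells and alpha cells share much of this machinery with neurons.

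Reads assigned to genes numbered 37302246 to 44442165 in the BKO-model libraries and 22330252 to 23673180 in the EKO-model libraries. Levels are given below as CPM, counts per 1000000 gene reads after TMM scaling, and the values of a group are given in the order replicate 1, replicate 2. Sirt6 itself stood at 12.6 to 24.4 CPM in all 8 libraries, with a log2 fold change of 0.34 ± 0.30 (SE) in BKO and 0.15 ± 0.30 in EKO, and edgeR gave an adjusted p of 1 for both. Counts over the whole gene include exons outside a floxed region, so this level checks no label. Beta cell markers summed to 168032 to 307856 CPM and alpha cell markers to 14605 to 43978 CPM, while red blood cell markers reached at most 1.53 CPM with Hba-a1, Hbb-b1 and Hbb-b2 at 0. Libraries stood apart in the EKO model: acinar markers summed to 8091 and 612 CPM in its controls and to 2196 and 273 CPM in EKO, against 182 to 880.3 CPM in the BKO model, with Amy2a5 at 0 in every library. Stellate cell and fibroblast markers were likewise higher in replicate 1 than in replicate 2 of each group there. They summed to 2430.1 and 35.1 CPM in control libraries and to 992 and 129 CPM in EKO. No pair of replicates was a library deposited again, since their counts gave a chi-square of 68.4 to 224 per degree of freedom.

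Per kilobase of exon the granins were the most abundant of the 37 genes, and their summed level was lower in each knockout library than in the controls of its model, which is described here without a test. Chga codes for chromogranin A, Chgb for chromogranin B, Scg2 for secretogranin II and Scg3 for secretogranin III. The promoters of Chga, Chgb and Scg2, the 3 most abundant per kilobase, are shown because the cyclic AMP response element, a site for CREB family factors, is well known in granin promoters. The lines give the 120 bases before the start of the gene on its own strand, from RefSeq on GRCm38.p6, and the capitals mark the full element TGACGTCA or, in Chga, its first 5 letters TGACG.
Chga (chr12:102554821-102554940, plus strand): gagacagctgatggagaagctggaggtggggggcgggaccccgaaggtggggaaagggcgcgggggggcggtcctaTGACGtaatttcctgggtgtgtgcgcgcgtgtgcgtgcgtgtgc
Chgb (chr2:132781522-132781641, plus strand): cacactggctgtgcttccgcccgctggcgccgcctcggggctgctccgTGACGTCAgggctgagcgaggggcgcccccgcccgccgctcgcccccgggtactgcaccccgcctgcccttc
Scg2 (chr1:79440027-79440146, minus strand): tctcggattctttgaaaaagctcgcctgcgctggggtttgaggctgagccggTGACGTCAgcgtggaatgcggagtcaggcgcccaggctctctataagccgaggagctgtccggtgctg
The element begins 44 bases before the start in Chga, 72 bases in Chgb and 68 bases in Scg2. The full element, which reads the same on either strand, was searched in the 250 bases before each start and lay in 508 of 32851 promoters, or 1.55%. Among the 28 of the 37 genes with a promoter in the reference it lay in 2, Chgb and Scg2. The first 5 letters, TGACG, on either strand lay in 17.8% of all promoters and in 14 of the 28, and each full element also counts here. The shares are of promoters, while a gene was counted if any of its promoters matched, so the units differ. A match of letters is a description and does not show that a factor binds.

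Chga was measured at 5299.7 and 5477 CPM in BKO controls against 3999 and 5964 CPM in BKO, and at 5025 and 11046 CPM in EKO controls against 4285 and 7845 CPM in EKO. Its groups overlapped in either model. Chgb was at 5608 and 8164 CPM in BKO controls, above the 4905 and 3918 CPM of BKO. In the EKO model Chgb ran from 8954 to 2069 CPM between the control libraries, which enclosed most of the range of EKO, at 3627 and 1986 CPM. The log2 fold change of Chgb was -0.64 ± 0.67 in BKO and -0.97 ± 0.68 in EKO, within 1.5 standard errors of 0 in each.

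Scg2 was the granin whose groups did not overlap in either model. It was at 3417 and 3647 CPM in BKO controls and 2767 and 2842 CPM in BKO. The EKO model had it at 5867 and 4986 CPM in control libraries and 4725 and 3625 CPM in EKO. Every knockout library was thus below every control library of its own model. The log2 fold change was -0.33 ± 0.23 in BKO (edgeR unadjusted p = 0.2) and -0.38 ± 0.23 in EKO (unadjusted p = 0.153), and their mean was -0.36 ± 0.16 (unadjusted p = 0.0714), with an adjusted p of 1 each time. Scg3 was at 1203 and 1487 CPM in BKO controls against 1123 and 1119.6 CPM in BKO, and at 1622 and 1503 CPM in EKO controls against 1251 and 1541 CPM in EKO. The BKO libraries lay below their controls, and the EKO groups overlapped.

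The 4 granins together made up 63.0% to 75.6% of the reads of the 37 genes. Their summed level was 15529 and 18775 CPM in BKO controls and 12795 and 13843 CPM in BKO. In the EKO model the sum was 21468 and 19604 CPM in control libraries and 13889 and 14997 CPM in EKO. In both models each knockout library held less RNA of these 4 genes than each control library of that model. In the EKO model, however, Chga and Chgb differed from replicate to replicate in opposite directions. The other 33 genes summed to 7058 and 7657 CPM in BKO controls, 7413 and 8117 CPM in BKO, then 6934 and 8304 CPM in EKO controls against 7769.8 and 8417 CPM in EKO, with overlapping groups. These sums were formed after the values of the genes had been seen, and carry no test. Scg5, Vgf and Pcsk1n, granule genes of the further list described below, are in neither sum, and their groups overlapped in both models. Scg5, the most abundant of them, was at 1061 and 1127 CPM in BKO controls and 634 and 1328 CPM in BKO. The EKO model had it at 1948 and 875 CPM in control libraries and 2156 and 1029 CPM in EKO. Of all gene reads without scaling, the 37 genes took 2.39% and 2.74% in BKO controls against 2.09% and 2.05% in BKO, and 2.92% and 2.69% in EKO controls against 2.19% and 2.21% in EKO.
Cells other than beta cells also make granins. Alpha cell markers summed to 16919 and 24841 CPM in BKO controls and 20010.2 and 20986 CPM in BKO, with overlapping groups, and to 31661 and 43978 CPM in EKO controls against 25515 and 14605 CPM in EKO, where the knockout libraries were lower. Markers of delta, PP and epsilon cells summed to 2049 to 5564 CPM with overlapping groups in each model. In the BKO model other markers also differed without overlap: duct cell markers summed to 2615 and 3339 CPM in controls but 744 and 1685 CPM in BKO, and acinar markers to 880.3 and 711 CPM but 348 and 182 CPM. Beta cell markers were higher in BKO, at 202556 and 287182 CPM, than in its controls, at 179450 and 189119 CPM. The part of the cell makeup in the granin levels was not tested, and in these bulk samples fewer cells of a type and less RNA per cell cannot be told apart.

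**Figure D1:**
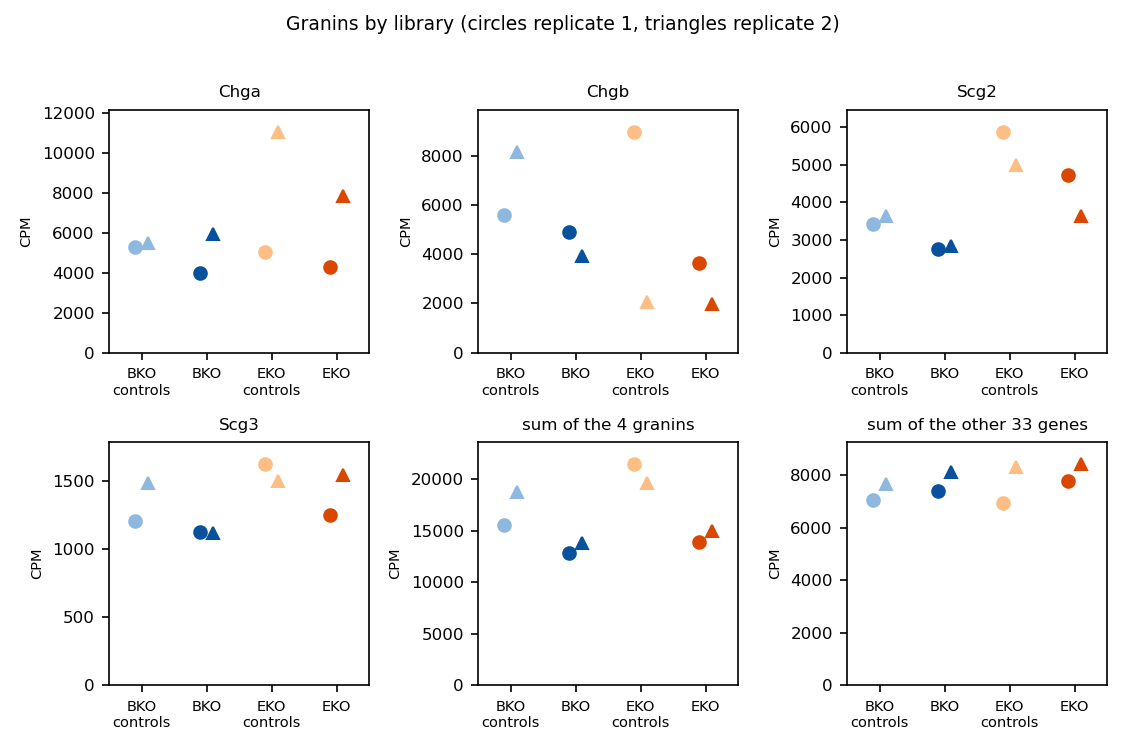
CPM of the 4 granins, of their sum and of the sum of the other 33 genes in each library by group, with circles for replicate 1 and triangles for replicate 2, on linear axes that start at 0. The granin sum is at most 14997 CPM in the knockout libraries and at least 15529 CPM in the control libraries, while the sum of the other genes overlaps.

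The remaining granule genes code for the IA-2 proteins, transmembrane relatives of tyrosine phosphatases that lie in the granule membrane and are known autoantigens in type 1 diabetes. Ptprn was at 1650.5 and 1574 CPM in BKO controls, 1172 and 1654 CPM in BKO, then 1544 and 1153 CPM in EKO controls against 1383 and 950.5 CPM in EKO. Ptprn2 was at 722 and 825 CPM in BKO controls, 882 and 845 CPM in BKO, then 741 and 1038 CPM in EKO controls against 839.9 and 911 CPM in EKO. Only the BKO groups of Ptprn2 did not overlap among these, with BKO higher. Across the 6 granule cargo and membrane genes the median log2 fold change was -0.23 in BKO, with 5 of 6 lower, and -0.29 in EKO, with 6 of 6 lower, where the median of all 15041 genes tested was 0.01 and -0.01. The sign held under every alternative for 4 of the 6 in BKO (Chgb, Scg2, Scg3 and Ptprn2) and for 1 in EKO, Scg2. None of the 6 passed the adjusted threshold in either comparison. The 14 other granule proteins tested in the further list described below showed no such lean. Their median was -0.03 in BKO, with 7 of 14 lower, and 0.04 in EKO, with 6 of 14 lower.

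Levels of different genes were compared per kilobase of exon, from exon lengths of the GENCODE vM21 annotation, which is of another build than the mm9 the authors used. The median over the 8 libraries was 2862 CPM per kilobase for Chga, 1610.1 for Chgb and 1446 for Scg2, and these overlapped, while Scg3 followed at 574 and was lower than Scg2 in 8 of 8 libraries. With coding length in place of exon length Cplx2, at 1503, ranked above Scg3, at 969. At the other end stood Rab3c at 1.08, Doc2b at 0.666, Cplx1 at 0.409 and Rims1 at 0.018 CPM per kilobase.
Members of a family differed widely in level. Cplx2 exceeded Cplx1 by a median ratio of 272 per kilobase, and Cadps exceeded Cadps2 by 9.79. Rims2 was above Rims1 in all 8 libraries. Of the 5 synaptotagmins among the 37 genes Syt13 was the highest, at 3.75 times Syt4, and Syt9 the lowest, at a level that Syt7 exceeded 6.92-fold. The ranges of Syt4 and Syt5 overlapped, as did those of Syt5 and Syt7, whose order turned when coding length replaced exon length.
Among the SNAREs of the granule Vamp2 exceeded Vamp3 by 1.83, and Vamp3 and Vamp8 overlapped. Of those on the plasma membrane Snap25 exceeded Stx4a by 2.58 and Stx4a exceeded Stx1a by 2.82. Among the Rabs Rab27a and Rab3d overlapped, Rab3d exceeded Rab3a by 1.64, Rab3a exceeded Rab3b by 3.85 and Rab3b exceeded Rab3c by 9.06. Except for Rab3a and Rab3b with coding length, in 7 of 8, each of these orders without overlap held in 8 of 8 libraries with either length.

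**Figure D2:**
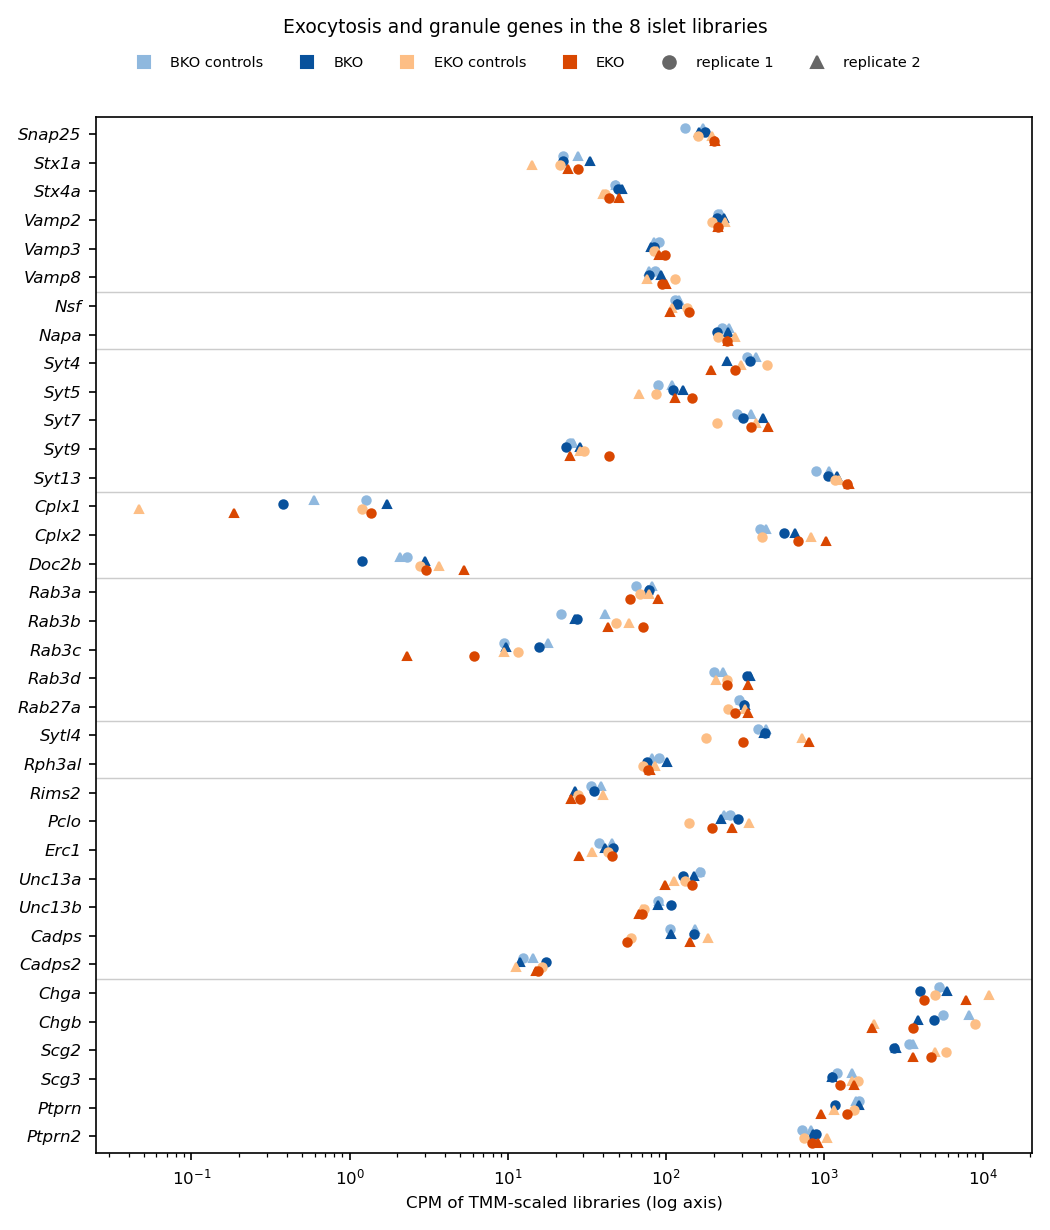
CPM on a log axis of the 36 genes tested in the 8 libraries, coloured by group, with circles for replicate 1 and triangles for replicate 2, and grey lines between roles. The granins lie at 1119.6 CPM or more and Cplx1 lies at 0.0465 to 1.71 CPM.

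No gene of the machinery passed the adjusted threshold of 0.05 for Sirt6 deletion. In BKO against its controls edgeR called 0 of the 36, DESeq2 called 0, and 1 had an unadjusted p under 0.05 in edgeR. Of all 15041 genes edgeR called 0% and DESeq2 0.0598%, and 0.977% had an unadjusted p under 0.05. In EKO against its controls edgeR called 0 of the 36, DESeq2 called 0, and 1 had an unadjusted p under 0.05 in edgeR. Of all genes edgeR called 0.00665% and DESeq2 0.572%, and 3.7% had an unadjusted p under 0.05 in edgeR. In DESeq2 4 of the 36 had an unadjusted p under 0.05, beside 4.53% of all genes. The median log2 fold change of the 36 was 0.05 in BKO and 0.01 in EKO. A difference of more than 1.5-fold either way was seen for 2 of the 36 in BKO and 4 in EKO, beside 12.2% and 20.1% of all genes. In BKO the groups did not overlap for 6 genes that were higher and 5 that were lower, beside 16.3% and 13.8% of all genes. In EKO they did not overlap for 7 that were higher and 3 that were lower, beside 12.5% and 9.57% of all genes. The counts of groups without overlap are close to what the shares of all genes give, with somewhat more on the higher side in EKO, and the counts past 1.5-fold are below those shares. The genes described next are those of smallest p, not called ones.

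**Figure D3:**
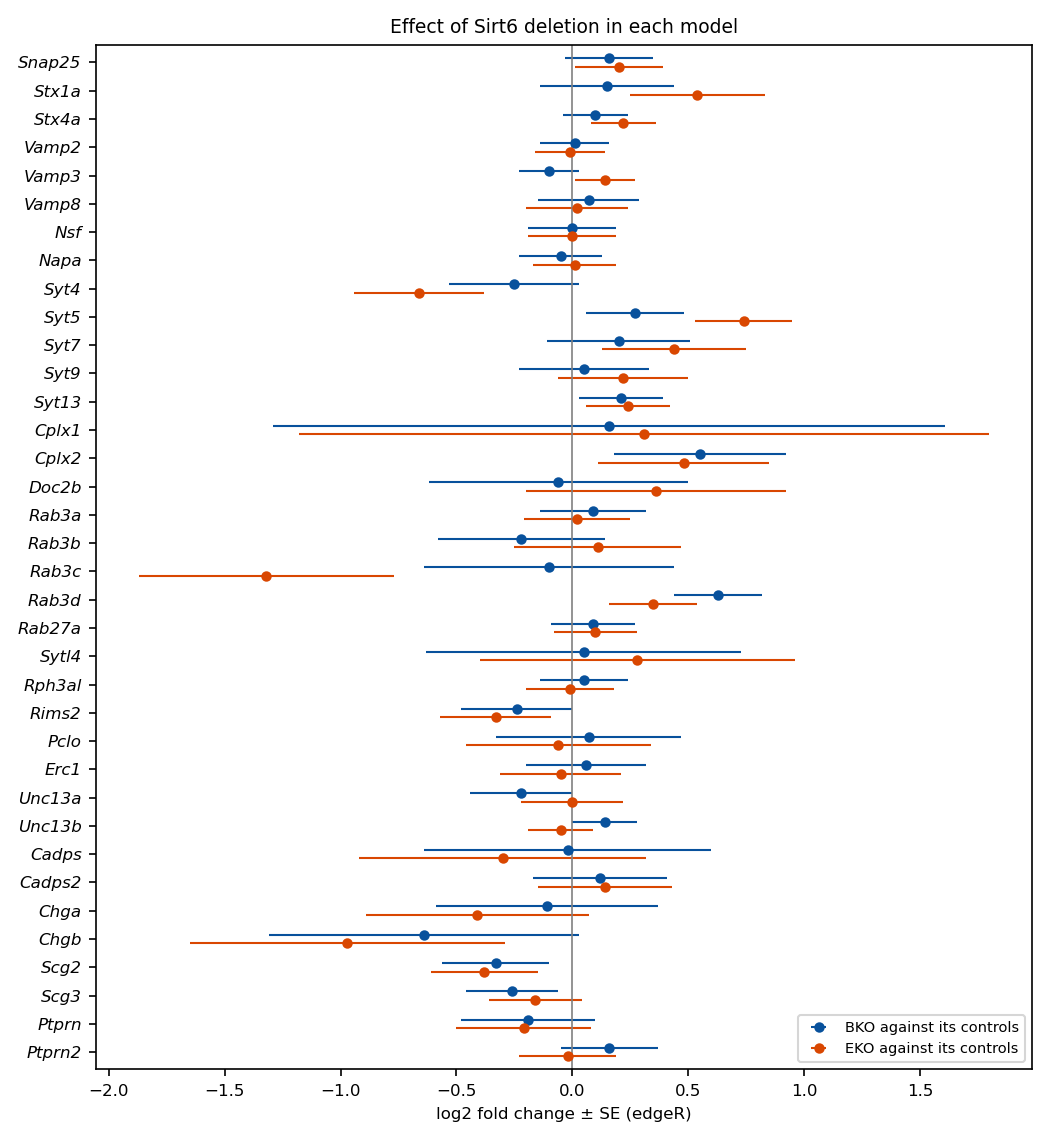
log2 fold change with its standard error from edgeR for each of the 36 genes, in BKO against its controls (dark blue) and in EKO against its controls (orange). The estimates run from -0.64 to 0.63 in BKO and from -1.32 to 0.74 in EKO.

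Rab3d, a Rab3 isoform that sits on secretory granules, had the smallest p in BKO. It was at 199.8 and 229 CPM in BKO controls and 325 and 337 CPM in BKO. The EKO model had it at 243 and 206 CPM in control libraries and 244 and 327 CPM in EKO. The BKO libraries stood clear of their controls, while EKO replicate 1 was almost level with the higher control. The log2 fold change was 0.63 ± 0.19 in BKO (edgeR unadjusted p = 0.0164) and 0.35 ± 0.19 in EKO (unadjusted p = 0.121), both with an adjusted p of 1. Rab3d is also a gene of the zymogen granules of acinar cells. Acinar markers summed to 880.3 and 711 CPM in BKO controls. They were lower in BKO, at 348 and 182 CPM, where Rab3d was higher. Between the EKO control libraries the one with 8091 CPM of acinar markers had the more Rab3d, at 243 against 206 CPM. Between the EKO libraries the one with more acinar RNA, at 2196 against 273 CPM of markers, had the less Rab3d, at 244 against 327 CPM. The part of acinar RNA in the Rab3d levels was not tested. Vamp8, a SNARE of zymogen granules, was at 85.2 and 77.6 CPM in BKO controls, 77.9 and 92.5 CPM in BKO, then 114 and 75.6 CPM in EKO controls against 93.6 and 99.3 CPM in EKO, with overlapping groups in both models. Its highest value was in the library with the most acinar RNA. Between the EKO libraries it was lower in the one with more acinar RNA. In the BKO model it was highest in the library with the least. The part of acinar RNA in the Vamp8 levels was not tested either.

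Syt5, a calcium-binding synaptotagmin, had the smallest p in EKO. It was at 86.0 and 67.7 CPM in EKO controls against 145 and 113 CPM in EKO. In the BKO model it was at 88.8 and 109 CPM in control libraries and 111 and 128 CPM in BKO. Knockout libraries were the higher ones in both models, by a narrow gap in the BKO model. The log2 fold change was 0.74 ± 0.21 in EKO (edgeR unadjusted p = 0.0103) and 0.27 ± 0.21 in BKO (unadjusted p = 0.234), and the adjusted p was 1 in each. The BKO value ran from 0.13 without BKO control replicate 1 to 0.43 without BKO control replicate 2.

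Syt4, a synaptotagmin known from mouse islets to affect how strongly release depends on calcium, had lower values in EKO. It was at 431 and 299 CPM in EKO controls against 271 and 191 CPM in EKO, and at 323 and 368 CPM in BKO controls and 337 and 243 CPM in BKO. The EKO groups did not overlap and the BKO groups did. The log2 fold change was -0.66 ± 0.28 in EKO (edgeR unadjusted p = 0.055) and -0.25 ± 0.28 in BKO (unadjusted p = 0.399), and the adjusted p was 1 in each. The EKO value ran from -0.93 without EKO replicate 1 to -0.40 without EKO control replicate 1.
The other synaptotagmins were Syt7, a high-affinity calcium sensor of insulin and glucagon release, Syt9, and Syt13, which lacks the calcium-binding residues. Syt7 was at 282 and 342 CPM in BKO controls, 307 and 408 CPM in BKO, then 211 and 369 CPM in EKO controls against 346 and 439 CPM in EKO. Syt13 was at 891 and 1072 CPM in BKO controls, 1053 and 1209.6 CPM in BKO, then 1166 and 1228 CPM in EKO controls against 1398 and 1426 CPM in EKO. Syt9 ran from 23.4 to 43.6 CPM over the 8 libraries. Of these only the EKO groups of Syt13 did not overlap. Of the 5 synaptotagmins, 4, all but Syt4, had a positive log2 fold change in each model, with a median over the 5 of 0.20 in BKO and 0.24 in EKO, where 51.1% and 48.6% of all genes were higher. The signs of Syt7 and Syt9 in BKO and of Syt9 in EKO turned under some alternative. Other synaptotagmins, complexins and Doc2 genes in the further list described below, some with few reads, had 13 genes tested. Their median was -0.16 in BKO, with 6 of 13 higher, and -0.13 in EKO, with 5 of 13 higher.

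Rab3c and Stx1a completed the 4 smallest p-values in EKO. Rab3c, a Rab3 isoform of low level here, was at 11.5 and 9.48 CPM in EKO controls against 6.13 and 2.29 CPM in EKO. In the BKO model it was at 9.45 and 17.8 CPM in control libraries and 15.6 and 9.77 CPM in BKO, with no order between the groups. Its log2 fold change was -1.32 ± 0.55 in EKO (edgeR unadjusted p = 0.0523) and -0.10 ± 0.54 in BKO (unadjusted p = 0.856), and it ran from -2.19 without EKO replicate 1 to -0.77 without EKO replicate 2. Stx1a, the syntaxin that pairs with SNAP25 on the plasma membrane, was at 21.4 and 14.2 CPM in EKO controls against 27.8 and 24.0 CPM in EKO. It was at 22.4 and 27.6 CPM in BKO controls and 22.4 and 33.1 CPM in BKO. The EKO libraries were above their controls, by a log2 fold change of 0.54 ± 0.29 (edgeR unadjusted p = 0.112), which ran from 0.28 without control replicate 2 to 0.83 without control replicate 1. The adjusted p was 1 for either gene.

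Cplx2, the complexin gene of higher level in these islets, codes for a protein that binds assembled SNAREs. It was at 394 and 429.8 CPM in BKO controls and 555 and 653 CPM in BKO, without overlap, and at 402 and 820.4 CPM in EKO controls against 682 and 1025 CPM in EKO, with overlap. Its log2 fold change was 0.55 ± 0.37 in BKO (edgeR unadjusted p = 0.178) and 0.48 ± 0.37 in EKO (unadjusted p = 0.232). The EKO control libraries differed 2.04-fold in this gene. Cplx1 and Doc2b were low in reads: Cplx1 had 58 and 23 reads in BKO controls, 15 and 71 in BKO, 29 and 1 in EKO controls and 31 and 4 in EKO, so that no comparison of groups can be read from it. Doc2b, a soluble calcium sensor, ran from 1.19 to 5.29 CPM with overlapping groups in both models.

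**Figure D4:**
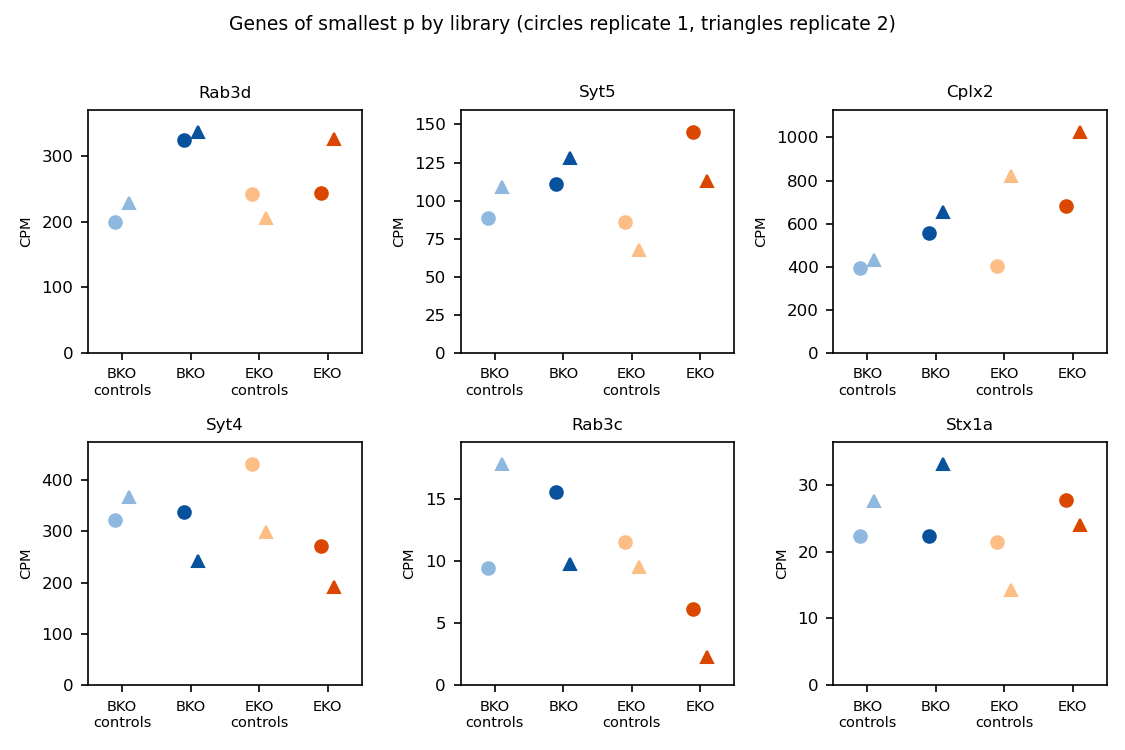
CPM of Rab3d, Syt5, Cplx2, Syt4, Rab3c and Stx1a in each library by group, with circles for replicate 1 and triangles for replicate 2, on linear axes that start at 0. Rab3d and Syt5 are higher in each knockout library than in the controls of its model, and the groups of Rab3c and Syt4 overlap in the BKO model and do not in the EKO model.

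The rest of the SNARE proteins had estimates within 0.22 of 0 on the log2 scale. Stx4a, a syntaxin of the plasma membrane, was at 47.8 and 47.9 CPM in BKO controls against 49.8 and 52.7 CPM in BKO, and at 40.8 and 40.0 CPM in EKO controls against 43.6 and 50.4 CPM in EKO. Its groups did not overlap in either model, with a log2 fold change of 0.10 ± 0.14 in BKO and 0.22 ± 0.14 in EKO. Snap25 ran from 131 to 204 CPM, Vamp2 from 194 to 236 CPM and Vamp3 from 79.8 to 98.5 CPM over the 8 libraries. For Snap25 the EKO libraries, at 202 and 204 CPM, lay above their controls, at 159 and 195 CPM, and the BKO groups overlapped. The log2 fold change of Vamp2, the main SNARE of the insulin granule, was 0.01 ± 0.15 in BKO and -0.01 ± 0.15 in EKO. For Nsf, the ATPase that takes used SNARE complexes apart, it was 0.00 ± 0.19 in each model, and for Napa, its adaptor, -0.05 ± 0.18 and 0.01 ± 0.18. Nsf ran from 105 to 139 CPM and Napa from 211 to 274 CPM. For Vamp2, Nsf and Napa a change as large as the 1.54-fold of Rab3d in BKO lies outside 2 standard errors. These errors reflect only how these libraries spread, which may be technical variation, so they set no bound for other animals.

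Among the other Rabs and effectors, Rab27a, which marks docking-competent insulin granules, was at 290.1 and 296 CPM in BKO controls, 309 and 315 CPM in BKO, then 245 and 317 CPM in EKO controls against 274 and 327 CPM in EKO. The BKO libraries were just above their controls, and the EKO groups overlapped. Rab3a ran from 58.8 to 89.2 CPM with overlap in both models. Sytl4, which codes for granuphilin, the Rab27a effector that docks insulin granules, was at 382 and 428 CPM in BKO controls and 424 and 415 CPM in BKO, but at 179 and 727 CPM in EKO controls against 306 and 798 CPM in EKO. Rph3al, which codes for the Rab effector Noc2, ran from 70.9 to 101 CPM.

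Of the active zone and priming genes, only Unc13a in the BKO model had knockout and control groups that did not overlap. Unc13a, which codes for the priming factor Munc13-1, was at 163 and 161 CPM in BKO controls and 128 and 150.4 CPM in BKO, without overlap, and at 132 and 112 CPM in EKO controls against 145 and 98.2 CPM in EKO. Rims2, which codes for the RIM isoform of islets, ran from 25.1 to 39.6 CPM and had a log2 fold change of -0.24 ± 0.24 in BKO and -0.33 ± 0.24 in EKO. Cadps, which codes for the priming factor CAPS1, ran from 56.4 to 185 CPM, and Cadps2 from 11.3 to 17.5 CPM. Pclo, which codes for the scaffold piccolo, ran from 139.6 to 335 CPM, and Erc1, which codes for the scaffold ELKS, from 28.2 to 45.8 CPM. The median of the 7 tested genes of this role was 0.06 in BKO and -0.05 in EKO.

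When the effects of the models were averaged in the same fit, edgeR called 0 of the 36 genes and DESeq2 called 0. In edgeR 2 had an unadjusted p under 0.05. For all genes these shares were 0.00665%, 0.652% and 4.21%. In DESeq2 4 had an unadjusted p under 0.05, beside 5.35% of all genes. The 2 in edgeR were Rab3d and Syt5. Rab3d had a mean log2 fold change of 0.49 ± 0.14 (edgeR unadjusted p = 0.0108), and Syt5 had 0.51 ± 0.15 (unadjusted p = 0.0119). Syt4 came next with -0.46 ± 0.20 (unadjusted p = 0.0585) and then Scg2. Rab3d, Syt5 and Stx4a were higher and Scg2 was lower in every knockout library than in every control library of its own model, which makes 3 genes of 36 beside 4.47% of all genes and 1 gene beside 2.6%.

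The difference between the effects was tested too, as EKO effect minus BKO effect. edgeR called 0 of the 36, DESeq2 called 0, and 0 had an unadjusted p under 0.05. For all genes these shares were 0%, 0.0399% and 1.01%. The smallest p belonged to Syt5, with a difference of 0.47 ± 0.29 on the log2 scale (edgeR unadjusted p = 0.153), and to Rab3c, with -1.21 ± 0.77 (unadjusted p = 0.162). Vamp3, a widely expressed SNARE of the vesicle, was at 90.5 and 83.9 CPM in BKO controls above 83.3 and 79.8 CPM in BKO, and at 84.1 and 87.2 CPM in EKO controls below 98.5 and 89.7 CPM in EKO. It was the 1 gene of the 36 whose groups did not overlap in either model and lay in opposite directions, beside 1.25% of all genes, and the difference was 0.23 ± 0.18 (unadjusted p = 0.236). For Syt4 it was -0.41 ± 0.40 (unadjusted p = 0.343). When each library was left out, the difference ran from 0.29 to 0.64 for Syt5 and from -2.09 to -0.67 for Rab3c, lowest and highest without EKO replicates 1 and 2. For Syt4 it ran from -0.68 without EKO replicate 1 to -0.15 without BKO replicate 1. The adjusted p was 1 for these 4 genes, so an effect of smaller p in EKO than in BKO is not shown to differ between the models.

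Replicates of the EKO model differed more than replicates of the BKO model. The median difference between replicates on the log2 scale, over the 36 genes, was 0.18 in BKO controls, 0.23 in BKO, 0.35 in EKO controls and 0.39 in EKO, beside 0.22, 0.28, 0.50 and 0.39 for all genes. More than 2-fold apart were 1 of the 36 genes in BKO controls, 2 in BKO, 7 in EKO controls and 4 in EKO, beside 11.3%, 11.1%, 28.5% and 21% of all genes. Sytl4 was 4.05-fold higher in replicate 2 of the EKO controls and 2.61-fold higher in replicate 2 of EKO. Cadps was 3.10-fold and 2.51-fold higher there, and Chga 2.20-fold and 1.83-fold higher. Chgb went the other way, with replicate 2 at 0.231 of replicate 1 in EKO controls and at 0.547 in EKO.
The same libraries, those numbered 1 in the EKO model, had the more acinar and stellate cell RNA of their groups. They also had less beta cell RNA, with beta cell markers at 168032 CPM in control replicate 1 against 267048 CPM in control replicate 2, and at 202442 CPM in EKO replicate 1 against 307856 CPM in EKO replicate 2. In the BKO model the beta cell markers summed to 179450 and 189119 CPM in control libraries and 202556 and 287182 CPM in BKO. The part of these cells in the differences between replicates was not tested.

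**Figure D5:**
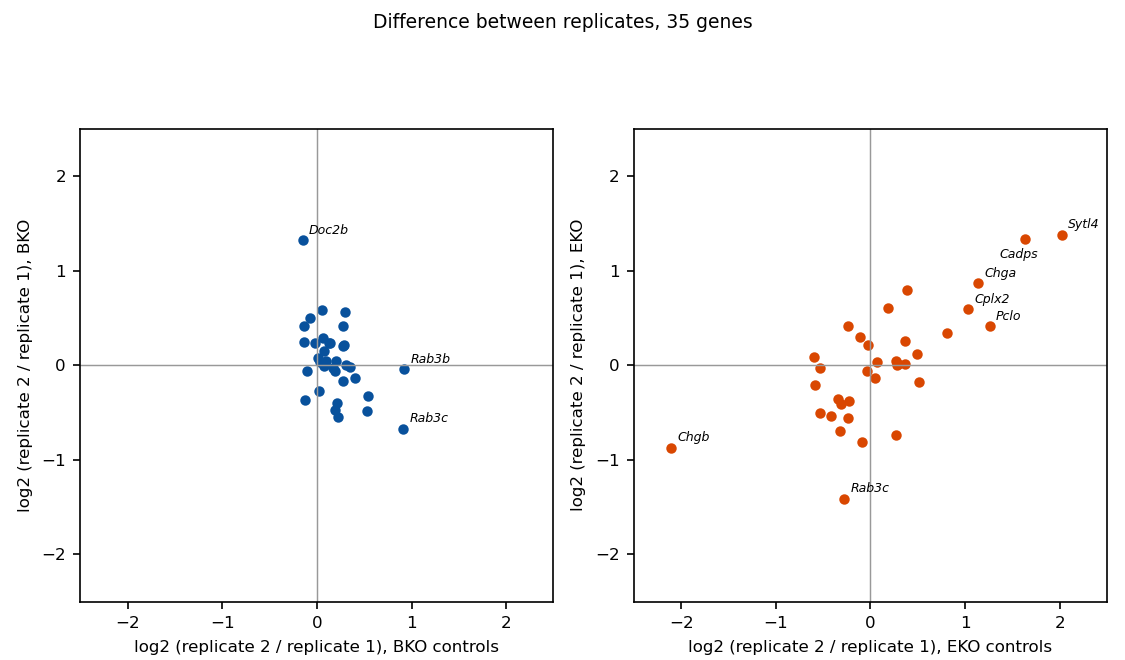
log2 ratio of replicate 2 to replicate 1 in the controls (x axis) and in the knockout group (y axis) of the BKO model (left) and the EKO model (right), for 35 genes, without Cplx1 and Rims1. In the EKO model Sytl4, Cadps and Chga lie far to the upper right and Chgb to the lower left, while in the BKO model most genes lie near the centre.

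Islets of the BKO model were also set against islets of the EKO model, over knockout and control libraries alike. Cre driver and sequencing depth go with the model and cannot be told apart. Which libraries received tamoxifen, beside those of BKO, and which sequencer each library ran on are not stated in the labels. edgeR called 0 of the 36 genes beside 0.346% of all genes, with 4 at an unadjusted p under 0.05 beside 13.7% of all genes, and DESeq2 called 3 beside 5.76%. Unc13b, which codes for the priming factor Munc13-2, was at 88.7 and 90.1 CPM in BKO controls and 108 and 89.4 CPM in BKO, above the 72.6 and 70.5 CPM of the EKO controls and the 70.7 and 67.6 CPM of EKO. Its difference was 0.42 ± 0.10 on the log2 scale, with an adjusted p of 0.170 in edgeR and 0.0133 in DESeq2. Rab3b went the other way, at 21.6 and 40.9 CPM in BKO controls, 27.2 and 26.4 CPM in BKO, then 48.0 and 58.0 CPM in EKO controls against 71.6 and 42.8 CPM in EKO. Its difference was -0.93 ± 0.26, with an adjusted p of 0.221 in edgeR and 0.0237 in DESeq2. These were the genes of the 36 whose 4 libraries of each model did not overlap, 1 higher and 1 lower, beside 6.15% and 4.75% of all genes.
The levels of Scg2 given above were lower in the BKO model, with a difference of -0.60 ± 0.17 and an adjusted p of 0.222 in edgeR and 0.00108 in DESeq2, and overlapped between the models. Rab3c was higher there by 0.98 ± 0.39, with an adjusted p of 0.346 in edgeR. Alpha cell markers overlapped between the models too, at 16919 to 24841 CPM in the BKO model and 14605 to 43978 CPM in the EKO model.

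A further list of 96 genes of the pathway, made up of other SNAREs and their Sec1/Munc18 partners, synaptotagmins, Rabs with effectors and regulators, active zone genes, granule proteins and the exocyst, had 90 genes tested. edgeR called 0 of the 90 in each comparison, and the number with an unadjusted p under 0.05 was 0 in BKO, 6 in EKO, 2 for the difference of the effects, 6 for their mean and 13 for the models, beside 0.977%, 3.7%, 1.01%, 4.21% and 13.7% of all genes. DESeq2 called 0 of the 90 in the first 4 comparisons and 10 between the models, 5 higher and 5 lower in the BKO model, beside 5.76% of all genes. The median log2 fold change of the 90 was 0.00 in BKO and 0.02 in EKO.
Nnat, which codes for neuronatin, a protein known from mouse beta cells to aid insulin handling in the endoplasmic reticulum, was at 14.0 and 12.5 CPM in BKO controls and 21.8 and 27.2 CPM in BKO. The EKO model had it at 13.7 and 17.1 CPM in control libraries and 15.8 and 34.2 CPM in EKO. The BKO libraries were clear of their controls, with a log2 fold change of 0.89 ± 0.37 (edgeR unadjusted p = 0.0521) and an adjusted p of 1. Stx6, a syntaxin of the trans-Golgi, came next in BKO with 0.30 ± 0.16 (edgeR unadjusted p = 0.118).
In EKO the smallest p-values were those of Sytl1, a Rab27 effector, and Myo5a, the myosin Va motor that carries granules on actin. Sytl1 was at 37.2 and 42.3 CPM in EKO controls against 24.4 and 27.0 CPM in EKO, and at 39.0 to 46.3 CPM in the BKO model. Myo5a was at 95.1 and 102 CPM in EKO controls against 63.1 and 64.7 CPM in EKO, and in the BKO model at 125 and 127 CPM in control libraries and 128 and 94.6 CPM in BKO. Both were lower in EKO without overlap, by log2 fold changes of -0.63 ± 0.16 (edgeR unadjusted p = 0.00748) and -0.62 ± 0.17 (unadjusted p = 0.00932), with an adjusted p of 1.
The difference of the effects was -0.60 ± 0.23 for Sytl1 and 2.43 ± 0.85 for Syt17, a synaptotagmin of few reads here, with 39 and 14 in EKO controls, 98 and 118 in EKO, 21 and 19 in BKO controls and 11 and 20 in BKO, and the adjusted p was 1 for both. The mean effect was -0.40 ± 0.12 for Myo5a and 0.79 ± 0.26 for Nnat, both with an adjusted p of 1 in edgeR. The mean effect of Nnat was 0.46 without EKO replicate 2 and 1.02 without EKO replicate 1.
Between the models the smallest p-values were those of Syt10 and Bsn. Syt10 had 68 and 108 reads in BKO controls and 131 and 150 in BKO, but 2 and 0 in EKO controls and none in EKO, and edgeR gave an adjusted p of 0.0543. Bsn, which codes for the active zone scaffold bassoon, was at 54.3 to 64.7 CPM in the 4 BKO-model libraries and 26.8 to 40.6 CPM in the 4 EKO-model libraries, with an adjusted p of 0.0757 in edgeR.

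The authors' deposited table for the BKO model lists 99 genes and their table for the EKO model 243, of which 29 and 198 carry an adjusted p of 0.05 or more. A further 12 genes of the EKO table have no adjusted p. None of the 37 genes is in either list. Of the 96 further genes the authors' deposited table for BKO lists Nnat, with a log2 fold change of 0.64 and an adjusted p of 0.0369, and the authors' deposited table for EKO lists Syt17, with 0.79 and an adjusted p of 1. For the same comparisons edgeR gave 0.89 ± 0.37 for Nnat in BKO and 2.11 ± 0.61 for Syt17 in EKO, and called neither.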

How the data were processed

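Islet RNA of 8 libraries was analysed from the raw counts per gene symbol that the authors deposited. TopHat, HTSeq and mm9 are named in the submitters' processing notes, without versions or the strand setting. Reads in rows that name no gene (31.6% to 39.7% of each library aligned to several places, 8.19% to 11.1% outside genes, 0.105% to 0.127% on several genes) were left out. The authors also deposited 1 table of results per model, with a mean signal, a log2 fold change and its error, a score called stat, and p-values before and after adjustment, per the file headers. The rule that selected the genes is not stated, and these values entered no test.

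The tests used edgeR 4.0.16 under R 4.3.3 (quasi-likelihood F test, TMM scaling, filterByExpr with a count minimum of 10) in a fit of the 4 groups without covariates, which left 15041 genes and 4 residual degrees of freedom. Benjamini-Hochberg adjustment ran over all 15041, with a threshold of 0.05, and errors are standard errors of the log2 fold change with n = 2 libraries per group. DESeq2 1.42.0, DESeq2 size factors, no filter, the replicate number as a block, fits of the 4 libraries of a model and each library left out in turn were the alternatives. Fits without the EKO-model libraries numbered 1 or numbered 2 were added after seeing the data. The scripts were tested on simulated data. The 37 genes, the 96 further genes and the marker lists were chosen with earlier results of these data known. In each of the 5 contrasts the 4 genes of smallest p among the 37 and the 2 among the 96 were given full statistics. The other genes are given by their levels, and those picked out for groups that do not overlap were chosen after their values were seen. Exon lengths came from GENCODE vM21 and promoters from RefSeq on GRCm38.p6, and neither is of the build the authors used.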

Additional observations from a re-analysis of the deposited data

How the results depend on the processing

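None of the 36 genes was called for Sirt6 deletion, for the mean effect or for the difference of the effects under any alternative. The count of called genes over the whole table moved as follows. With DESeq2 the count was 9 in BKO, 86 in EKO, 6 for the difference of the effects, 98 for their mean and 866 between the models. Between the models it was 105 without a filter on low counts. In the fit of the 4 libraries of the model it was 0 in EKO. Leaving out each library in turn gave 1 to 2 in EKO, 1 to 2 for the mean effect and 4 to 199 between the models, lowest without BKO replicate 1 and highest without EKO control replicate 1. Without the EKO-model libraries numbered 1 it was 2 in EKO and 982 between the models, and without those numbered 2 it was 0 in EKO and 1050 between the models. In these fits each EKO-model group has 1 library, which is assumed to vary like the others. Of the 36 genes, DESeq2 called 3 between the models, and the fits without the libraries numbered 1 and numbered 2 called 3 and 2.

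The median log2 fold change of the 36 genes ran from -0.03 to 0.09 in BKO and from 0 to 0.17 in EKO when each library was left out. The number at an unadjusted p under 0.05 in edgeR went from 1 to 6 in EKO without EKO control replicate 2, and from 2 to 7 for the mean effect, while the share of all genes there was 10.3% and 9.55%. In BKO it was 0 without BKO control replicate 1 or BKO replicate 2, beside 0.473% and 0.969% of all genes, and 3 in the fit of the 4 libraries of the model, beside 3.46%. A group that loses a library has 1 left, which is assumed to vary like the other groups. The sign of the log2 fold change was the same under all alternatives for 15 of the 36 genes in BKO and 13 in EKO.

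Libraries that share a replicate number deviated from their group means with correlations of 0.34 between BKO and its controls, 0.45 between EKO and its controls, and -0.28 to 0.41 across the models. The labels give no shared animal, litter or day for a number and each model has only 2 pairs, so the libraries were not treated as paired. With the replicate number as a block edgeR called 2 genes for the mean effect and none of the 36. The causes of these shifts were not tested. With 2 libraries per group the standard error of the 36 genes had a median of 0.24 on the log2 scale in each model, and Cplx1, Doc2b and Rab3c are limited by their few reads.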
